A study of Mus musculus with 60 samples.

Results

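The 4 TEAD transcription factors (Tead1, Tead2, Tead3, Tead4), 5 components of the Hippo pathway that acts on them (Yap1, Wwtr1, Vgll4, Lats1, Lats2) and the AP-2 factor Tfap2c were followed in nascent RNA from mouse embryonic stem cells with and without knockdown of Esrrb. These 10 genes were taken by symbol out of 24260 gene symbols in the deposited tables. Each was represented by its RefSeq transcript with the highest RPKM summed over the libraries. RPKM is reads divided by library depth and by the length of the transcript, here with its introns. They were listed by name, with earlier results of these data known.

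The cells were E14 mouse embryonic stem cells, 1 line derived from the embryo before implantation, kept in serum and LIF on gelatin without a feeder layer named in the labels. The siCtrl group had 2 libraries from cells transfected with a control siRNA, and the siEsrrb group had 2 libraries in which the siRNA targeted Esrrb, all harvested 72 h after transfection with Lipofectamine RNAiMAX. RNA was taken from the chromatin pellet, which is rich in transcripts still being made, and ribosomal RNA was depleted. The libraries held between 22363943 and 68002338 reads, and the replicate 1 libraries of both groups were the shallower ones. No label says that the replicates were separate cultures, and the series text leaves nascent RNA-seq out of its statement of biological replicates. The p-values therefore measure only the spread between these libraries, which may be technical.

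TEAD proteins bind DNA but activate little by themselves. They recruit the coactivators YAP1 and TAZ (the product of Wwtr1), which the Hippo kinases LATS1 and LATS2 phosphorylate and so keep out of the nucleus, and VGLL4 competes with the coactivators for TEAD. In the early embryo TEAD4 with YAP1 turns on the trophectoderm programme in outer cells, while AP-2 gamma, the product of Tfap2c, acts in the same lineage and in trophoblast stem cells. Esrrb encodes an orphan nuclear receptor that serves naive pluripotency and is also used by trophoblast stem cells. Most of the control in the Hippo pathway acts on the proteins, which nascent RNA does not measure.

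Values of a group are given with replicate 1 first. Esrrb itself (NM_011934) stood at 3.23 and 3.36 RPKM in the siCtrl libraries, and the siEsrrb libraries had 1.38 and 2.20 RPKM. Nascent Esrrb was thus lower in both knockdown libraries, at 44.2% of control in replicate 1 and 67.0% in replicate 2. Its fold change of -0.72 ± 0.15 (log2 ± SE, n = 2 libraries per group) had an adjusted p of 0.281 in limma, so the targeted gene did not pass the test either. All 10 markers of embryonic stem cells were above the expression minimum (a mean of 0.5 RPKM over the 4 libraries), while none of 7 markers of primitive endoderm was. Of the 10 stem cell markers, 5 were lower in both knockdown libraries, 1 was higher and 4 overlapped. Among all tested genes 22.0% were lower and 21.8% higher in both. Zfp42 was at 54.1% of control, Fgf4 at 61.7% and Pou5f1 at 136%, with limma adjusted p-values of 0.250, 0.277 and 0.509. Pou5f1 differed between the replicates, at 169% in replicate 1 and 108% in replicate 2.

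Sequences next to the start sites are shown for the genes whose promoter windows (RefSeq, GRCm38.p6, 250 bases before to 50 after the annotated start) hold the TEAD core motif GGAATG on either strand ahead of the start, to let the TEAD motif be seen in the promoters of the pathway's own genes. Windows were given for 7 of the 10 genes, with 11 windows in all. Each line gives the bases around a match, 5′ to 3′ on the gene's strand, with the motif in capitals (CATTCC is GGAATG on the opposite strand).
Yap1, chr9:8004720-8004749, minus strand: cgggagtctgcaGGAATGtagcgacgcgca
Wwtr1, chr3:57576029-57576058, minus strand: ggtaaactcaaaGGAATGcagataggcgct
Vgll4, chr6:114969268-114969297, minus strand: cgagtggggtggGGAATGctgagaaatgcc
Tead3, chr17:28350970-28350999, minus strand: gacgacgagcgaGGAATGgggtgcgcggga
Tead3, second start, chr17:28350706-28350735, minus strand: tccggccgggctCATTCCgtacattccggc

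The motif began 141 bases before the start in Yap1, 136 in Wwtr1 (from the upstream one of its starts), 82 in Vgll4, 182 in Tead3 and 123 at a second Tead3 start. A further CATTCC began 114 bases before that second Tead3 start and can be read in lower case in the same line. Counting both sides of the start, GGAATG occurred in 7 of the 11 windows and in 5 of the 7 genes (Lats2, Tead3, Vgll4, Wwtr1, Yap1), against 14.7% of 32851 promoter windows and 16.6% of genes in the table. Windows of 1 gene overlap and can share a match, and genes with several windows have more chances to hold one, so the counts are a description. The AP-2 motif GCCNNNGGC occurred in 5 windows of 4 genes (Lats2, Tead2, Tead3, Yap1), against 16.6% of all windows and 25.2% of the windows of expressed genes.

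The Esrrb motif TCAAGGTCA occurred in none of the 11 windows, against 0.423% of all windows. Its last letters AGGTCA, the core recognised by many nuclear receptors, occurred in the windows of Wwtr1 only, against 16.3% of all windows, and is shown as the place of that shorter motif.
Wwtr1, chr3:57575877-57575906, minus strand: ggcaggctggctccggccaggAGGTCAtgc
These matches describe letters in short windows and not bound sites. Whether the factors bind elsewhere near the genes was not tested.

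Of the 10 genes, 8 passed the expression minimum and were tested together with all other expressed genes, 9758 in total. None of the 8 passed the limma test after Benjamini-Hochberg adjustment (adjusted p from 0.356 to 0.863), nor did any other gene (0.0% of 9758). At an unadjusted limma p under 0.05 stood 2 of the 8, Tead2 and Tead3, against 11.3% of all tested genes. The 2 siEsrrb libraries lay both below the 2 siCtrl libraries for Tead1, Tead4 and Wwtr1 (22.0% of all tested genes, with 5.33% lower at an unadjusted p under 0.05) and both above them for Tead2, Tead3 and Lats1 (21.8%). Together that is 6 of 8, against 43.8% of all tested genes. Of these, Wwtr1 reached the expression minimum only through the siCtrl libraries (0.543 and 0.658 RPKM, against 0.438 and 0.549 in siEsrrb). With 2 libraries per group, the smallest p of an exact permutation test is 0.333, so no single gene can pass it. With RPKM as deposited, unscaled, 5 of the 8 did not overlap: Tead1, Tead4 and Tfap2c lower, Tead3 and Yap1 higher.

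**Figure D1:**
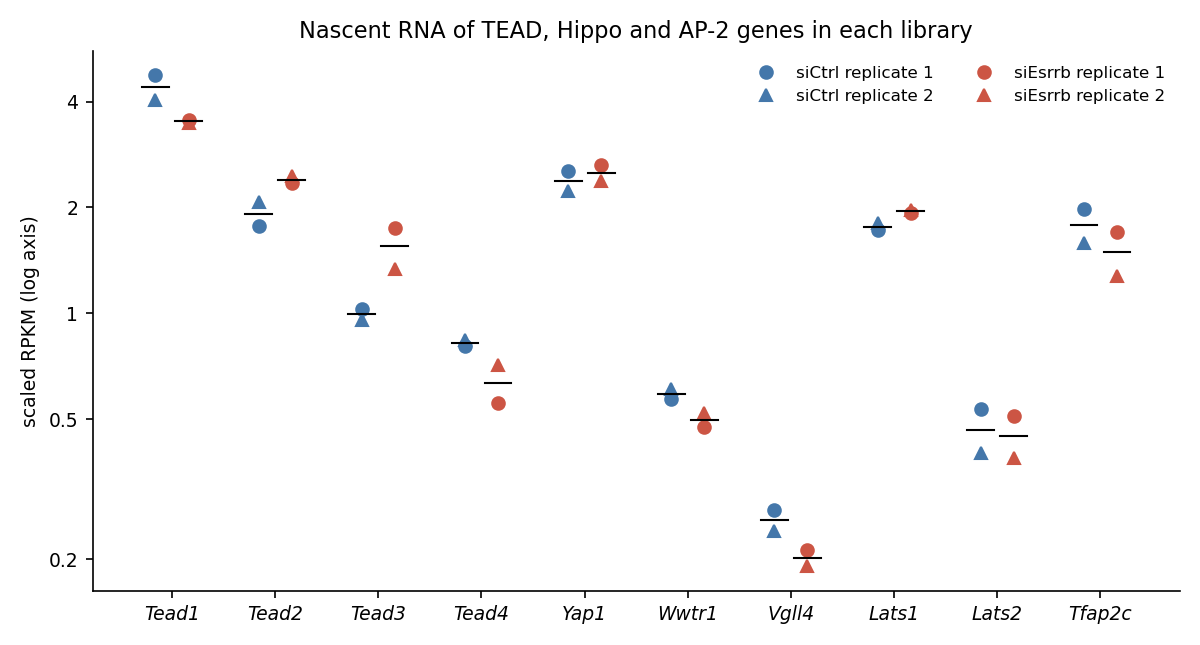
Scaled RPKM (log axis) of the 10 genes in each siCtrl (blue) and siEsrrb (red) library, 1 point per library (circle replicate 1, triangle replicate 2), with a line at the mean of each group. Tead1 is the highest of the 10 genes in all 4 libraries, and the siCtrl and siEsrrb points separate for Tead1, Tead4, Wwtr1 and the untested Vgll4 (siEsrrb lower) and for Tead2, Tead3 and Lats1 (siEsrrb higher).

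The TEAD factors divided into a pair with lower and a pair with higher nascent RNA after Esrrb knockdown. The lower pair had the longer transcript rows (Tead1 147422 bases, Tead4 73671) and the higher pair the shorter ones (Tead2 17867, Tead3 18674). Whether the differences go with gene length was not tested. Tead1 (NM_001166585), the most abundant of them here, had 4.52 and 4.37 RPKM in the siCtrl libraries and 3.27 and 3.66 in the siEsrrb libraries. Both knockdown libraries lay below both controls, at 74.8% of control in replicate 1 (95% counting interval 73.0% to 76.7%) and 85.7% in replicate 2 (84.5% to 87.0%). The scaled level was 4.39 ± 0.497 RPKM in siCtrl and 3.51 ± 0.0609 in siEsrrb (mean ± SD, n = 2 each). The fold change was -0.28 ± 0.11 (log2 ± SE), with an adjusted p of 0.447 in limma, and -0.18 without siCtrl replicate 1. All counting intervals here cover the sampling of reads only.

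Tead4 (NM_001080979), the TEAD factor that the trophectoderm depends on, had 0.768 and 0.907 RPKM in the siCtrl libraries and 0.510 and 0.754 in the siEsrrb libraries. The knockdown libraries were again the lower ones, at 68.8% of control in replicate 1 (63.1% to 75.0%) and 85.2% in replicate 2 (81.5% to 89.1%). Its fold change was -0.22 ± 0.10 (log2 ± SE), with an adjusted p of 0.502 in limma. The siEsrrb libraries differed more from each other (scaled SD 0.113 RPKM) than the siCtrl libraries did (0.0229 RPKM), and without siEsrrb replicate 1 the fold change was -0.12.

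Tead3 (NM_001204156), known for its expression in placenta, had 0.984 and 1.03 RPKM in the siCtrl libraries and 1.61 and 1.41 in the siEsrrb libraries. The knockdown libraries were higher, at 170% of control in replicate 1 (151% to 192%) and 140% in replicate 2 (130% to 151%). With 0.45 ± 0.12 (log2 ± SE) it had the largest fold change of the 8 tested genes, and 7.70% of all tested genes had a larger one in either direction. Its unadjusted limma p of 0.0193 became an adjusted p of 0.356. The siEsrrb libraries differed more from each other (scaled SD 0.295 RPKM) than the siCtrl libraries did (0.0555 RPKM). Without siEsrrb replicate 1 the fold change was 0.30, and without siEsrrb replicate 2 it was 0.60.

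Tead2 (NM_001285498), the TEAD factor best known from early embryos and neural progenitors, had 1.69 and 2.23 RPKM in the siCtrl libraries and 2.15 and 2.59 in the siEsrrb libraries. As deposited, the lower knockdown library lay below the higher control. After scaling for library composition both knockdown libraries lay above both controls, at 132% of control in replicate 1 (120% to 146%) and 119% in replicate 2 (113% to 125%). The fold change was 0.26 ± 0.09 (log2 ± SE), with an unadjusted limma p of 0.0423 and an adjusted p of 0.423. It was 0.18 without siCtrl replicate 1 and 0.35 without siCtrl replicate 2.

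**Figure D2:**
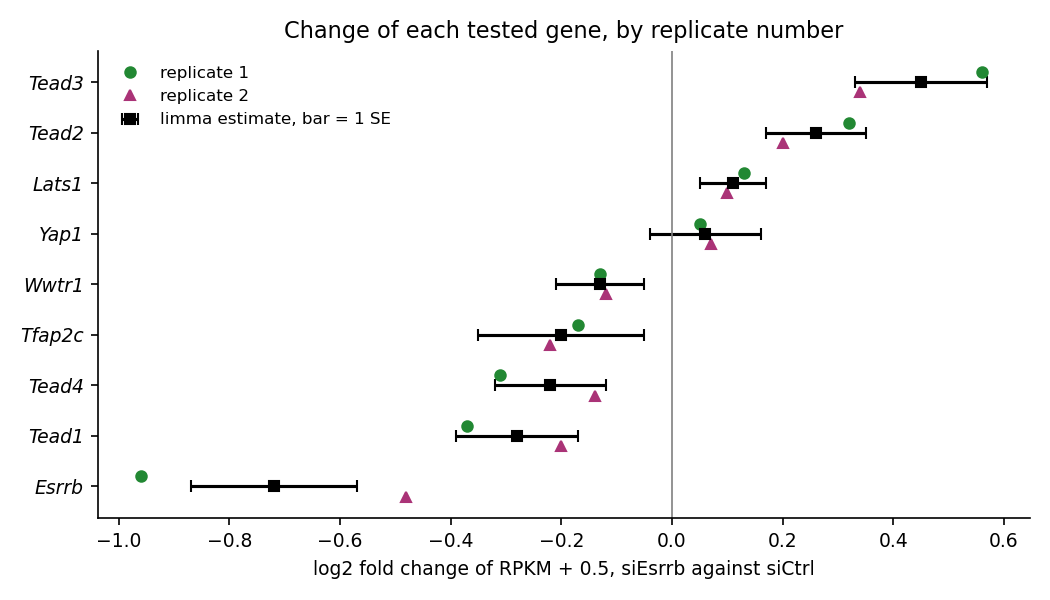
Log2 fold change (siEsrrb against siCtrl, of scaled RPKM + 0.5) of the tested genes and Esrrb (black square, bar 1 standard error), with the fold change of replicate 1 (green) and replicate 2 (purple). Tead3 stands highest at 0.45 and Tead1 lowest at -0.28 among the 8 genes, with Esrrb at -0.72, and the replicates have the same sign in each of the 8.

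The summed level of the 4 factors overlapped between the groups, while the share of each factor in it did not. Scaled RPKM summed over Tead1 to Tead4 was 8.35 and 7.90 in the siCtrl libraries and 8.20 and 7.97 in the siEsrrb libraries. Tead1 made up 56.8% and 51.2% of that sum in siCtrl and 43.3% and 43.5% in siEsrrb. Tead3 made up 12.4% and 12.1% in siCtrl and 21.4% and 16.8% in siEsrrb.

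Tead2 took 21.2% and 26.2% of the sum in the control libraries and 28.5% and 30.8% in the knockdown libraries. The share of Tead4 went from 9.65% and 10.6% in siCtrl to 6.77% and 8.96% in siEsrrb. No share overlapped between the groups, which were not tested on it, since 2 against 2 libraries allow no exact test below the usual threshold. Shares of 1 sum are not independent of each other, and these were computed after the levels were seen.

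Tead1 RNA was 4.60 and 4.24 times that of Tead3 per length in the siCtrl libraries and 2.02 and 2.59 times in the siEsrrb libraries. That is a difference of -0.95 in the log2 ratio, which does not depend on the scaling between libraries. The ratio of Tead4 to Tead3 was 0.781 and 0.879 in siCtrl and 0.316 and 0.534 in siEsrrb, a difference of -1.01. Tead1 to Tead2 gave 2.68 and 1.96 in siCtrl and 1.52 and 1.41 in siEsrrb, a difference of -0.65. These ratios too were chosen after the values were seen.

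**Figure D3:**
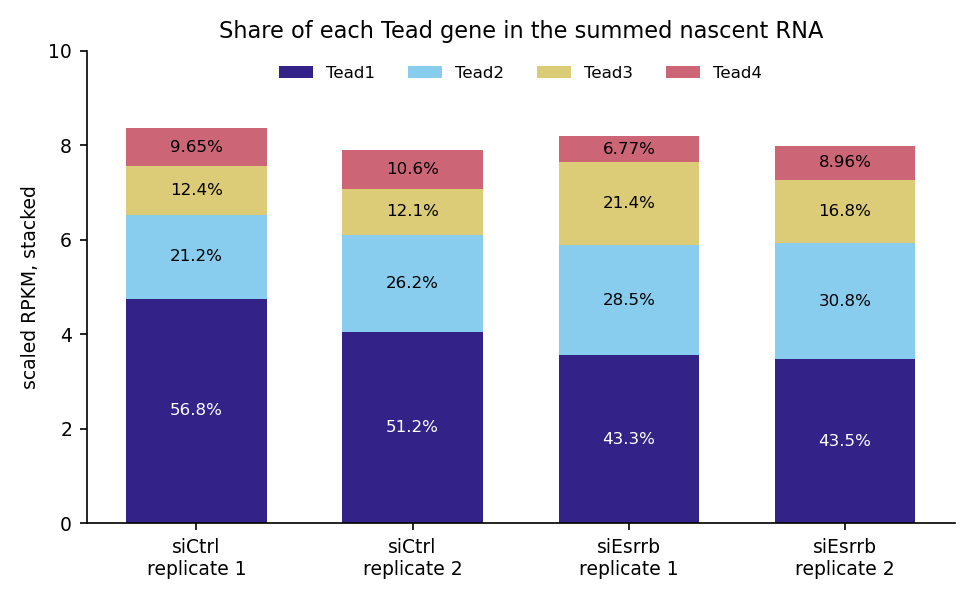
Scaled RPKM of Tead1 to Tead4 stacked per library, with the share of each factor in the sum printed as a percentage. Tead1 has the largest share in every library but a smaller one in siEsrrb (43.3% and 43.5%) than in siCtrl (56.8% and 51.2%), and the Tead2 and Tead3 shares are larger in siEsrrb.

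Of the coactivators, Yap1 showed no separation of the groups and Wwtr1 a small one. Yap1 (NM_001171147) had 2.42 and 2.41 RPKM in the siCtrl libraries and 2.43 and 2.50 in the siEsrrb libraries, and after scaling the groups overlapped. The fold change was 0.06 ± 0.10 (log2 ± SE), with an adjusted p of 0.863 in limma, and its sign turned when siCtrl replicate 2 or siEsrrb replicate 1 was left out (-0.02 and -0.01). The knockdown level was 104% of control in replicate 1 (99.5% to 108%) and 106% in replicate 2 (104% to 109%).

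Wwtr1 (NM_133784), which encodes TAZ, had 0.543 and 0.658 RPKM in the siCtrl libraries and 0.438 and 0.549 in the siEsrrb libraries. It was 83.7% of control in replicate 1 (77.5% to 90.2%) and 85.5% in replicate 2 (82.1% to 89.1%), and the scaled groups did not overlap. The fold change was -0.13 ± 0.08 (log2 ± SE), with an adjusted p of 0.624 in limma, and 41.9% of tested genes had a larger one in either direction. Wwtr1 was near the expression minimum, at the percentile 2.95 of the levels of tested genes, so adding 0.5 RPKM shrinks its fold change.

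Yap1 RNA was 4.46 and 3.66 times that of Wwtr1 per length in the siCtrl libraries and 5.54 and 4.55 times in the siEsrrb libraries. In each replicate number the ratio was higher in siEsrrb, by 0.31 on the log2 scale on average. The groups did not separate in the sum of both coactivators, which was 3.11 and 2.83 scaled RPKM in siCtrl and 3.12 and 2.89 in siEsrrb.

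Vgll4 (NM_177683), the corepressor that competes with YAP1 and TAZ for TEAD, was the lowest of the 10 genes and under the expression minimum. It had 0.262 and 0.260 RPKM in the siCtrl libraries and 0.195 and 0.201 in the siEsrrb libraries. The knockdown libraries were lower, at 77.1% of control in replicate 1 (65.6% to 90.4%, 260 reads against 387) and 79.4% in replicate 2 (72.2% to 87.3%, 743 reads against 1055). In the fit without the expression minimum its fold change was -0.11 ± 0.05 (log2 ± SE), with an adjusted p of 0.601 in limma.

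Of the LATS kinase genes, Lats1 showed a small separation of the groups, and Lats2, too low to be tested, showed none. Lats1 (NM_010690) had 1.64 and 1.95 RPKM in the siCtrl libraries and 1.78 and 2.08 in the siEsrrb libraries. Scaled, the knockdown libraries were both higher, at 112% of control in replicate 1 (104% to 121%) and 109% in replicate 2 (105% to 113%). The fold change was 0.11 ± 0.06 (log2 ± SE), with an adjusted p of 0.580 in limma, and 45.6% of tested genes had a larger one. Lats1 overlaps Pcmt1 in the annotation, and the use of strand in counting is not given in the sources used here. Reads of the pair may thus be shared. Pcmt1 was also higher in both knockdown libraries, at 105% of control in replicate 1 and 109% in replicate 2. So were the neighbours Nup43, at 112% of control, and Katna1, at 104%. Whether Lats1 differs from these genes was not tested.

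Lats2 (NM_153382) is itself a known YAP target and was under the expression minimum, with 0.508 and 0.433 RPKM in the siCtrl libraries and 0.468 and 0.410 in the siEsrrb libraries. The groups overlapped, and with 64 to 180 reads per library the counting intervals were wide (95.4% of control in replicate 1, from 67.4% to 135%, and 97.0% in replicate 2, from 77.8% to 121%). A change of that size could not be detected at this depth in a row of only 6115 bases. The longer Lats2 row (NM_015771, 56462 bases, 424 to 1227 reads per library) had 0.324 and 0.32 RPKM in siCtrl and 0.336 and 0.306 in siEsrrb, also overlapping.

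Tfap2c (NM_001159696) had 1.89 and 1.71 RPKM in the siCtrl libraries and 1.56 and 1.35 in the siEsrrb libraries. As deposited, the knockdown libraries were both lower, but after scaling they overlapped with the controls. It was 85.8% of control in replicate 1 (73.0% to 101%) and 81.3% in replicate 2 (73.3% to 90.1%). The 7631-base row gave only 267 to 886 reads per library. The fold change was -0.20 ± 0.15 (log2 ± SE), with an adjusted p of 0.676 in limma. It ran from -0.05 without siEsrrb replicate 2 and -0.07 without siCtrl replicate 1 to -0.33 without siCtrl replicate 2 and -0.35 without siEsrrb replicate 1. A longer Tfap2c row (9029 bases) has 1398 additional bases with 43 to 109 reads per library. If the shorter row lies inside it, these bases were at 117% of control in replicate 1 and 95.1% in replicate 2.

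In order of scaled level in siCtrl, Tead1 was followed by Yap1, Tead2, Tfap2c, Lats1, Tead3, Tead4, Wwtr1, Lats2 and Vgll4. Neighbours in this order overlapped between libraries only for Tead2 with Tfap2c and for Tfap2c with Lats1. In siEsrrb the order was Tead1, Yap1, Tead2, Lats1, Tead3, Tfap2c, Tead4, Wwtr1, Lats2 and Vgll4, with overlap of Yap1 with Tead2, of Tead3 with Tfap2c and of Wwtr1 with Lats2. Tead1 exceeded Yap1 by 1.84 times in siCtrl and by 1.40 times in siEsrrb. Lengths include introns, so these levels describe RNA over the whole gene and not finished mRNA.

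Tead1 has a longer transcript row (NM_009346) with 80064 additional bases, and RPKM over the additional stretch could be computed from the recovered reads if the shorter gene lies inside the longer one, which the files do not state. It was 3.25 and 2.92 in the siCtrl libraries and 2.32 and 2.48 in the siEsrrb libraries, or 74.0% and 87.1% of control by replicate number. The shorter row had 74.8% and 85.7%, so under that reading both stretches were lower in both knockdown libraries.

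The 20 expressed genes next to the 10 genes, 1 on either side of each, came from the chromosomal surroundings of these genes. Their fold changes ran from -0.19 to 0.20 (log2), none had an unadjusted limma p under 0.05, and the lowest adjusted p was 0.477. Both knockdown libraries were lower at 4 of them and higher at 3, and 13 overlapped, against 22.0% lower and 21.8% higher among all tested genes. Next to Tead3 stood Rpl10a at 0.19 ± 0.25 and Fkbp5 at -0.19 ± 0.08 (log2 ± SE), next to Tead1 Usp47 at 0.07 ± 0.08 and Btbd10 at -0.13 ± 0.08, and next to Tead4 Tspan9 at -0.16 ± 0.08. The 3 higher ones were Pih1d1 next to Tead2 (0.20 ± 0.09) and the neighbours of Lats1. These were Nup43 (0.13 ± 0.07) and Katna1 (0.04 ± 0.06). The 4 lower ones were Fkbp5, Btbd10, Tspan9 and, next to Vgll4, Tamm41 (-0.07 ± 0.06). Among the neighbours that did not overlap, only Fkbp5 went the other way from the gene beside it. The difference between any of the 10 genes and its neighbours was not tested.

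Tead1 was most like Rad23b, Ppp2r2d and Erf in its 4 library values, at Euclidean distances of 0.0572, 0.0751 and 0.103 between log2(scaled RPKM + 0.5). With 4 libraries, such likeness shows a similar level and the same small difference between groups. Rad23b, for example, had 4.44 and 4.32 RPKM in siCtrl and 3.39 and 3.62 in siEsrrb.

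Among the Hippo kinases, adaptors and upstream regulators, 44 of 52 genes found were tested, with 11 lower in both knockdown libraries, 10 higher and 23 overlapping, against 43.8% not overlapping among all tested genes. The median fold change was -0.01 (-0.04 to 0.03 with 1 library left out), beside -0.001 over all tested genes. None passed the adjusted limma test, and 2 lower and 1 higher had an unadjusted p under 0.05, against 11.3% of all tested genes. Yes1, a SRC-family kinase that binds YAP1, went from 4.29 and 3.28 scaled RPKM in siCtrl to 2.27 and 2.31 in siEsrrb (-0.61 ± 0.14, log2 ± SE). Map4k3, a kinase that can act on LATS beside MST1 and MST2, was lower at -0.30 ± 0.08. Ajuba, a LIM protein that binds and inhibits LATS, was higher at 0.57 ± 0.26, and Patj, a scaffold of the apical Crumbs complex, was higher at 0.41 ± 0.08. Their limma adjusted p-values were 0.306, 0.348, 0.516 and 0.281.

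TEAD partners other than the coactivators were few in these cells. Only 4 of 12 passed the expression minimum, with Zeb1 at -0.37, Ncoa3 at -0.29 and Jun, an AP-1 subunit that shares enhancers with TEAD, at 0.56 (log2). Jun had 1.45 and 1.29 scaled RPKM in siCtrl and 2.61 and 1.94 in siEsrrb. The median of the 4 was -0.13 (-0.07 without siCtrl replicate 1), and none passed the adjusted limma test.

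**Figure D4:**
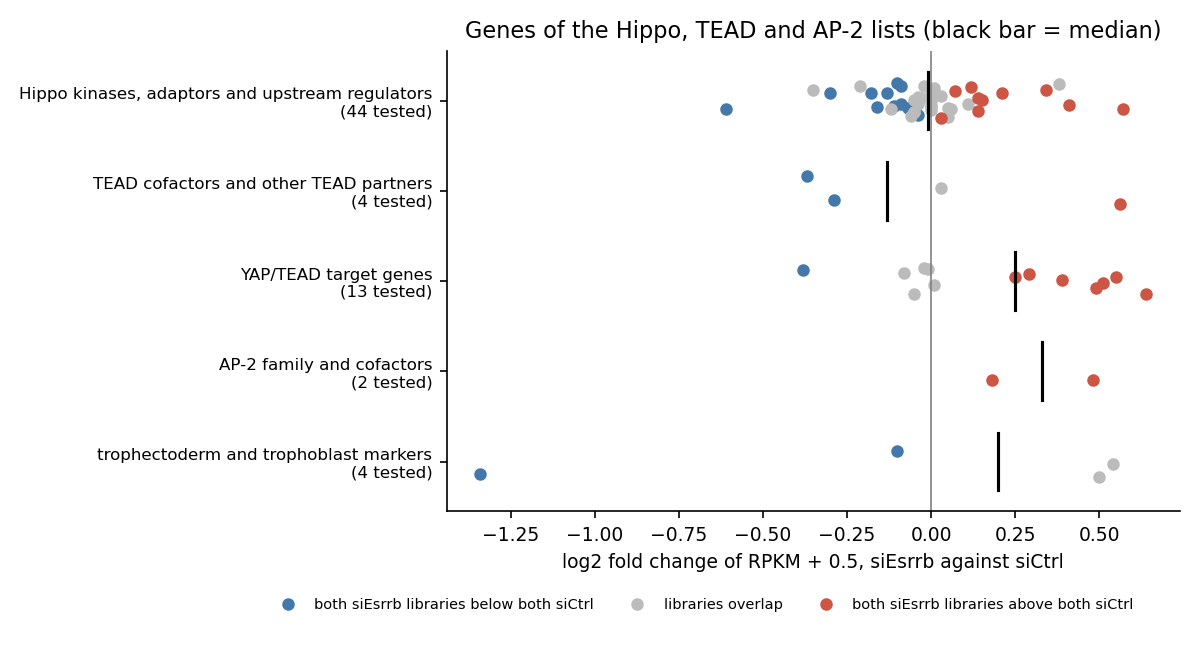
Log2 fold change (siEsrrb against siCtrl, RPKM + 0.5) of each tested gene in 5 lists, with a black bar at the list's median; blue points have both siEsrrb libraries below both siCtrl, red points both above, grey points overlap. The Hippo list centres on 0 with a median of -0.01, while 7 of 13 YAP/TEAD target genes are red, with a median of 0.25.

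Target genes of YAP and TEAD known from other cells showed more higher than lower values. Of 21 found, 13 were tested; 7 were higher in both knockdown libraries (21.8% of all tested genes), 1 was lower and 5 overlapped. The median fold change was 0.25, or 0.31 in replicate 1 and 0.17 in replicate 2, and was 0.14 without siEsrrb replicate 1. None passed the adjusted limma test, and 6 were higher with an unadjusted p under 0.05 (5.92% of all tested genes). With all 21 genes and no expression minimum, the median was 0.00 with 8 higher and 2 lower. Under quantile normalization, 6 of the 13 tested targets were higher and 1 lower.

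Ccn2 (connective tissue growth factor), the most used reporter of YAP activity, had 6.23 and 7.22 RPKM in the siCtrl libraries and 10.8 and 10.1 in the siEsrrb libraries. Its fold change was 0.64 ± 0.14 (log2 ± SE), with an adjusted p of 0.288 in limma. Ccn1, a matrix protein of the same family, had 5.21 and 5.64 RPKM in siCtrl and 8.11 and 7.77 in siEsrrb (0.55 ± 0.13). The other targets with higher values were Ptpn14 at 0.51, Igfbp3 at 0.49, Amotl2 at 0.39, Fjx1 at 0.29 and Arhgef17 at 0.25. Of these, Ptpn14 and Amotl2 encode proteins that hold YAP1 back. Fjx1 rested on only 40 to 112 reads per library, and its counting interval in replicate 2 (93.8% to 163% of control) included no change. Myof, a membrane repair protein, was the one lower in both knockdown libraries, at -0.38 ± 0.19.

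The 2 fibroblast markers above the expression minimum were higher too. Of 10 markers, 2 were tested, Tagln at 0.62 ± 0.17 and Acta2 at 0.44 ± 0.09 (log2 ± SE). Both were higher in both knockdown libraries (21.8% of all tested genes), and both encode smooth muscle cytoskeletal proteins. Acta2 had 0.338 and 0.489 RPKM in siCtrl and 0.678 and 0.751 in siEsrrb. It thus reached the minimum of 0.5 RPKM only through the group where it was high. The summed level of the 10 was 1.82 and 2.08 scaled RPKM in siCtrl and 3.57 and 3.13 in siEsrrb. Most of it was Tagln (1.28 and 1.11 in siCtrl, 2.53 and 1.74 in siEsrrb) and Acta2. The untested markers went both ways. In mean scaled RPKM of siCtrl and siEsrrb, the defining collagen Col1a1 had 0.147 and 0.212, and Thy1 0.0611 and 0.142. Col3a1 had 0.00376 and 0.00321, Pdgfrb 0.0397 and 0.0294, and Lum was at 0 in all libraries. Summed YAP/TEAD targets were 32.0 and 29.4 in siCtrl and 42.8 and 36.7 in siEsrrb. The part of these markers in the target result was not tested, and in bulk RNA more cells of a type and more RNA per cell cannot be told apart.

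**Figure D5:**
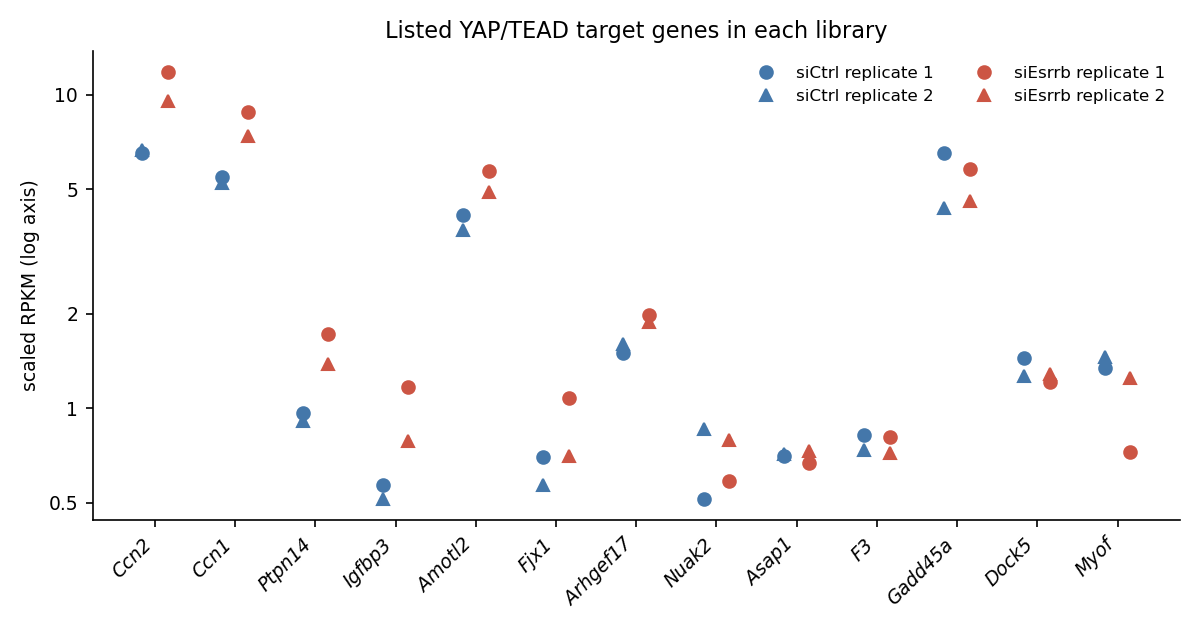
Scaled RPKM (log axis) of the 13 tested YAP/TEAD target genes in each siCtrl (blue) and siEsrrb (red) library. Both siEsrrb points lie above both siCtrl points for Ccn2, Ccn1, Ptpn14, Igfbp3, Amotl2, Fjx1 and Arhgef17 and below them for Myof.

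Of the AP-2 family and its cofactors, only Cited2 and Kctd15 were tested besides Tfap2c. Cited2, a CBP/p300 partner that coactivates AP-2 factors, had 3.17 and 2.73 scaled RPKM in siCtrl and 4.89 and 3.80 in siEsrrb (0.48 ± 0.15, log2 ± SE). Kctd15, an inhibitor of AP-2 alpha, was at 0.18. Neither passed the adjusted limma test.

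The 4 tested genes of the trophectoderm list gave no common direction. Of 17 listed, only 4 were tested, with a median of 0.20. Sox21, 1 of the 4, is known for a role in cell fate of the early embryo and not as a trophectoderm marker. The median includes it. Sox21 and Ets2 were lower in both knockdown libraries (22.0% of all tested genes), while Krt8 (0.54) and Krt18 (0.50) overlapped. Among all tested genes 43.8% did not overlap. With 1 library left out the median was 0.03 (siEsrrb replicate 1), 0.06 (siCtrl replicate 2), 0.32 (siCtrl replicate 1) or 0.37 (siEsrrb replicate 2). Sox21 had 2.52 and 2.00 scaled RPKM in siCtrl and 0.525 and 0.65 in siEsrrb (-1.34 ± 0.13, adjusted p of 0.247 in limma). Ets2 was at -0.10. The lineage factors Cdx2, Elf5, Eomes and Gata3 were under the expression minimum, with mean scaled RPKM of 0.0144, 0.000524, 0.182 and 0.136 in siCtrl and 0.0123, 0.00263, 0.0827 and 0.315 in siEsrrb. Of the other markers under the minimum, Ascl2 had a mean of 0.188 in siCtrl and 0.476 in siEsrrb, Tfap2a 0.133 and 0.313, and Hand1 0.0321 and 0.0856. Krt7 had 0.145 and 0.25, Fgfr2 0.343 and 0.588, and Gata2 0.153 and 0.236. Lower means in siEsrrb were those of Bmp4, with 0.375 and 0.135, and Prl3d1, with 0.00224 and 0.00126. At these levels none of them was tested.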

How the data were processed

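The authors deposited 1 RPKM value per RefSeq transcript (34929) and library. Per the submitters' processing notes, CASAVA 1.4 and TopHat2 were used with build mm9, and Bowtie 1.1.1 and Bowtie2 besides for replicate 1. How reads were counted, with which annotation and with what use of strand is not stated in these sources. A symbol was found for 34631 transcripts; the other 298 were left out. The deposited series table equals replicate 1 at all 34929 transcripts and added no data. RPKM were converted back to whole reads for 31770 of 31771 transcripts (within 0.001), for depths, intervals and an alternative test.

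RPKM were multiplied per library by median-of-ratios factors (1.05, 0.925, 1.09 and 0.948 for siCtrl 1 and 2 and siEsrrb 1 and 2). After adding 0.5 RPKM and taking log2, the test was limma 3.58.1 under R 4.3.3 (mean-variance trend, 2 groups, two-sided) over the 9758 genes whose mean RPKM reached 0.5, with Benjamini-Hochberg adjustment. Fold changes on this scale understate low genes. Percentages of control use scaled RPKM alone. The fit was also run on simulated counts with larger changes than those of the members and no shared replicate effect. The outcome is not given here and lends these results no weight. Genes named from each list were the 2 with the largest fold change in each direction whose groups did not overlap; other list genes were picked with their values in view. The members and lists were chosen with earlier results of these data known. Protein sequences, and promoters of Tead1, Tead4 and Tfap2c, were not analysed here. The other samples of the series were not analysed here.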

Additional observations from a re-analysis of the deposited data

How the results depend on the processing

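Member fold changes were recomputed 123 times under other pseudocounts, filters, scalings, tests, transcripts and with each library left out: 113 kept direction and side of the threshold, 8 passed the test besides, and 2 turned sign (Yap1, -0.02 without siCtrl replicate 2 and -0.01 without siEsrrb replicate 1, up to 0.14 without siCtrl replicate 1). Replicate numbers share only a number in the labels, and same-numbered libraries deviated together (r = 0.39 across 9758 genes, which are not independent). With the replicate block in limma, 0 genes passed the adjusted test and 2557 had an unadjusted p under 0.05. Limma voom on recovered reads gave 0 and 1196 without the block; with the replicate block it gave 2755 genes, among them 6 members (Tead1, Tead2, Tead3, Tead4, Wwtr1, Tfap2c), 28 list genes (7 YAP/TEAD targets, 6 of them higher) and Esrrb (-0.89). A mean of at least 20 reads, chosen after seeing the data, gave 0 genes without the block and 1197 with the replicate block, 2 members (Tead2, Tead3), 19 list genes (6 YAP/TEAD targets, all higher) and Esrrb (-0.72). Leaving out 1 library gave 0 to 12 genes past the test (2 without siCtrl replicate 1, 12 without siEsrrb replicate 2). With the minimum raised to a mean of 2 RPKM, only 3 members and 4 target genes remained tested, of which 2 and 3 did not overlap. Summed TEAD RNA in siEsrrb was 99.5% of siCtrl, 96.7% with RPKM as deposited and 96.8% to 102% with 1 library left out. Depth limits Lats2, Vgll4 and Tfap2c among the members and Fjx1 among the target genes.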
